A study of Mus musculus with 20 samples.

Results

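The glucocorticoid receptor, encoded by Nr3c1, and 9 genes known from other work as its direct or close targets were followed in mouse liver. The members are Nr3c1 itself, Hsd11b1, Fkbp5, Tsc22d3, Zbtb16, Sgk1, Dusp1, Klf9, Cdkn1a and Errfi1. Their rows were found by gene symbol, and they are 10 of the 48440 genes in the deposited count table. All 10 passed the filter on low counts, which 16071 genes passed in all.

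The receptor rests in the cytoplasm in a complex with HSP90 and its co-chaperones. Once it binds corticosterone in rodents or cortisol in humans, it moves to the nucleus, where it binds palindromic response elements as a dimer and induces some genes while it represses others, many of them inflammatory. In the liver it supports gluconeogenesis and amino acid breakdown. Several of its targets act back on it: FKBP5 lowers the affinity of the receptor complex for its ligand, and HSD11B1 regenerates active glucocorticoid from its inert keto form inside the cell.

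The livers came from 20 female wild-type C57BL/6 mice, aged 8 weeks when treatment began, and RNA of whole tissue was sequenced. Mice drank water with CORT (corticosterone, 100 μg per ml) or the ethanol vehicle for 5 weeks. All of them also received intraperitoneal injections of a monoclonal antibody (5 mg per kg, 2 times per week), which was either αACBP, an antibody that neutralizes the acyl-CoA binding protein ACBP/DBI, or an IgG2a isotype control. The design thus has 4 groups of 5 livers, named Isotype + Vehicle and αACBP + Vehicle without CORT and Isotype + CORT and αACBP + CORT with it, and asks what CORT does under either antibody and what αACBP does with and without CORT. No mouse was left without antibody injections, and CORT was given by mouth at a high dose over weeks, so these groups model chronic exposure and not the hours after a single dose.

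Between 14934926 and 20299999 read pairs were counted on genes per liver, and 3 counts, taken as the floor for a gene at 0, came to 0.145 to 0.205 CPM, that is, counts scaled to a library of fixed size after TMM normalization. Log2 CPM of livers of the same group correlated with r between 0.869 and 0.958. Hepatocyte markers led in every liver, with summed levels of 8 markers of 39533 to 141525 CPM. Markers of other cells were not even across groups: the summed level of 8 Kupffer cell and macrophage markers was 327 to 636 CPM with Isotype + Vehicle, 122 to 360.4 CPM with Isotype + CORT, 453 to 768 CPM with αACBP + Vehicle and 441 to 600.4 CPM with αACBP + CORT. The sum of 5 B cell markers was 41.5 to 62.3 CPM with Isotype + Vehicle and 3.58 to 18.7 CPM with Isotype + CORT. A clock index was computed for each liver as the mean z-score of Arntl, Npas2 and Clock minus that of Nr1d1, Dbp and Ciart, which peak at opposite times of day. It was -3.41 to -0.92 in αACBP + Vehicle, below every Isotype + Vehicle liver (0.62 to 1.80), so that αACBP and clock phase cannot be told apart under vehicle. Exons of the antisense genes Gm31862 and Thra cover 52.8% of the exon bases of Nr1d1, a gene of this index, and the strand setting of the counting is not given.

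**Figure D1:**
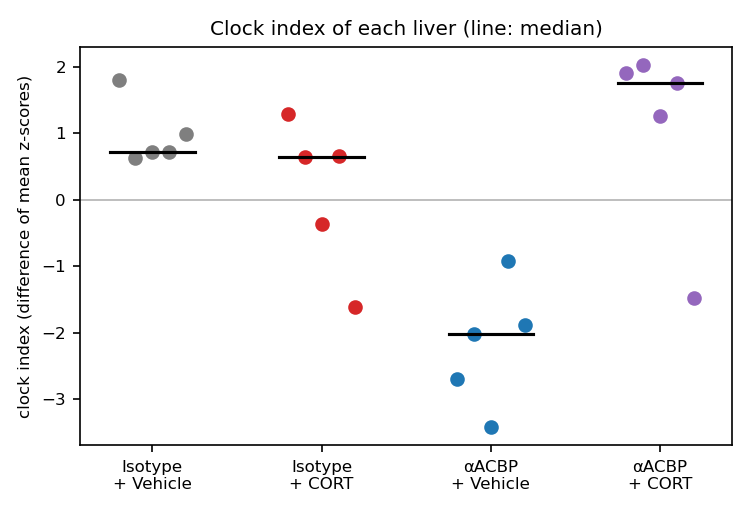
Clock index of each liver (vertical axis, a difference of mean z-scores without unit) in the 4 groups, with a line at the median of 5 livers. All 5 αACBP + Vehicle livers are below 0, between -3.41 and -0.92, and 1 αACBP + CORT liver, replicate 5, sits at -1.48 apart from the other 4 of its group.

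Sequences upstream of the members are shown because the receptor acts by binding DNA. Its binding to these stretches was not measured here. RefSeq promoter windows (250 bases before and 50 after a start site, tabulated for GRCm38.p6) were given for 8 of the members, 17 windows in all, each of which matched the GRCm39 genome once, and GRCm39 coordinates are used. Nr3c1 and Zbtb16 had no entry. The letters of the palindromic glucocorticoid response element, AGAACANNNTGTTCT, were searched on both strands and occurred in 3 of 32851 windows, or 0.00913%. A Sgk1 window was among these 3. Its start site is at position 21869789 of chromosome 10, inside the gene, and the upstream stretch chr10:21869539-21869788 (plus strand) holds no annotated exon base in GENCODE M39. In the sequence, the capitals mark an E-box at its left end, 246 bases before the start, and the palindrome, 189 bases before the start.
Sgk1, 250 bases upstream: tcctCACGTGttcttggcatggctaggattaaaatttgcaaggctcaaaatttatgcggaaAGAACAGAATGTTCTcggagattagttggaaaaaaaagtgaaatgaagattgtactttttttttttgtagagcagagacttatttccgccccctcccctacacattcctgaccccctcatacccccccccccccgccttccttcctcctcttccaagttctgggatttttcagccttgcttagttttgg

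A looser form, GNACANNNTGTNC, was in 0.475% of all windows and, among the members, only in the same Sgk1 window, where it overlaps the palindrome. The hexamer TGTTCT, a single arm of the element, was in 19% of all windows and among the members in those of Sgk1 and Tsc22d3. Other motifs searched on both strands were the E-box CACGTG, bound by clock factors among others and present in 7.15% of windows, and the cAMP response element TGACGTCA, present in 1.79%. Windows of 30 bases around the matches follow for the targets whose levels are given in full, with the match in capitals. They lie at chr17:28705275-28705304 (Fkbp5, minus strand), chr17:26727571-26727600 and chr17:26727555-26727584 (Dusp1, minus strand), chr4:150939465-150939494 (Errfi1, plus strand) and chrX:139501439-139501468 (Tsc22d3, minus strand).
Fkbp5, E-box 169 bases before the start: gcaagggccagaCACGTGggcagcggtgaa
Dusp1, cAMP response element 143 bases before the start: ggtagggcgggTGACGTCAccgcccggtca
Dusp1, E-box 126 bases before the start: tcaccgcccggtCACGTGtctgccattcaa
Errfi1, cAMP response element 51 bases before the start: gctgcgggcgtTGACGTCAcgttgtcgctc
Tsc22d3, TGTTCT 185 bases before the start: ccgcattcgacaTGTTCTaagttctgagac
The windows of Hsd11b1, Klf9 and Cdkn1a held none of these letters. Fkbp5 is known to be induced through elements in its introns, which these windows do not reach, and a match here is a description of the sequence only.

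Per kb of exon, Hsd11b1 was the most abundant member in the Isotype + Vehicle livers, at 140.6 ± 13.005 CPM per kb (SD, n = 5). Errfi1 followed at 77.4 ± 42.7 CPM per kb, and its range overlapped that of Hsd11b1. Dusp1 stood at 20.8 ± 11.1 and Tsc22d3 at 19.1 ± 5.53 CPM per kb, and their ranges overlapped each other but not that of Errfi1. Nr3c1, Sgk1, Fkbp5 and Cdkn1a formed a run of overlapping neighbours at mean levels of 6.21, 4.57, 3.55 and 2.67 CPM per kb. Klf9 and Zbtb16, at 0.76 and 0.58 CPM per kb, lay below the lowest Cdkn1a liver. Under CORT and isotype, Fkbp5 was in the fifth place by mean level per kb, at 11.6 ± 3.61, next to Tsc22d3 at 12.0 ± 2.80.

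The members differed in how steady they were. Over the 20 livers, the ratio of the highest to the lowest level was 2.01 for Nr3c1, 3.09 for Hsd11b1 and 6.77 for Fkbp5. It reached 18.4 for Zbtb16, 24.96 for Dusp1 and 53.2 for Cdkn1a. Within groups, the SD of log2 CPM was 0.25 for Nr3c1 and 0.27 for Hsd11b1, below the median of 0.49 over all genes tested. Dusp1 (1.18), Cdkn1a (1.07) and Zbtb16 (1.04) were above it, at percentiles 77.4, 74.4 and 73.9 of the genes tested, so that only large differences could have passed a test with 5 livers a group.

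**Figure D2:**
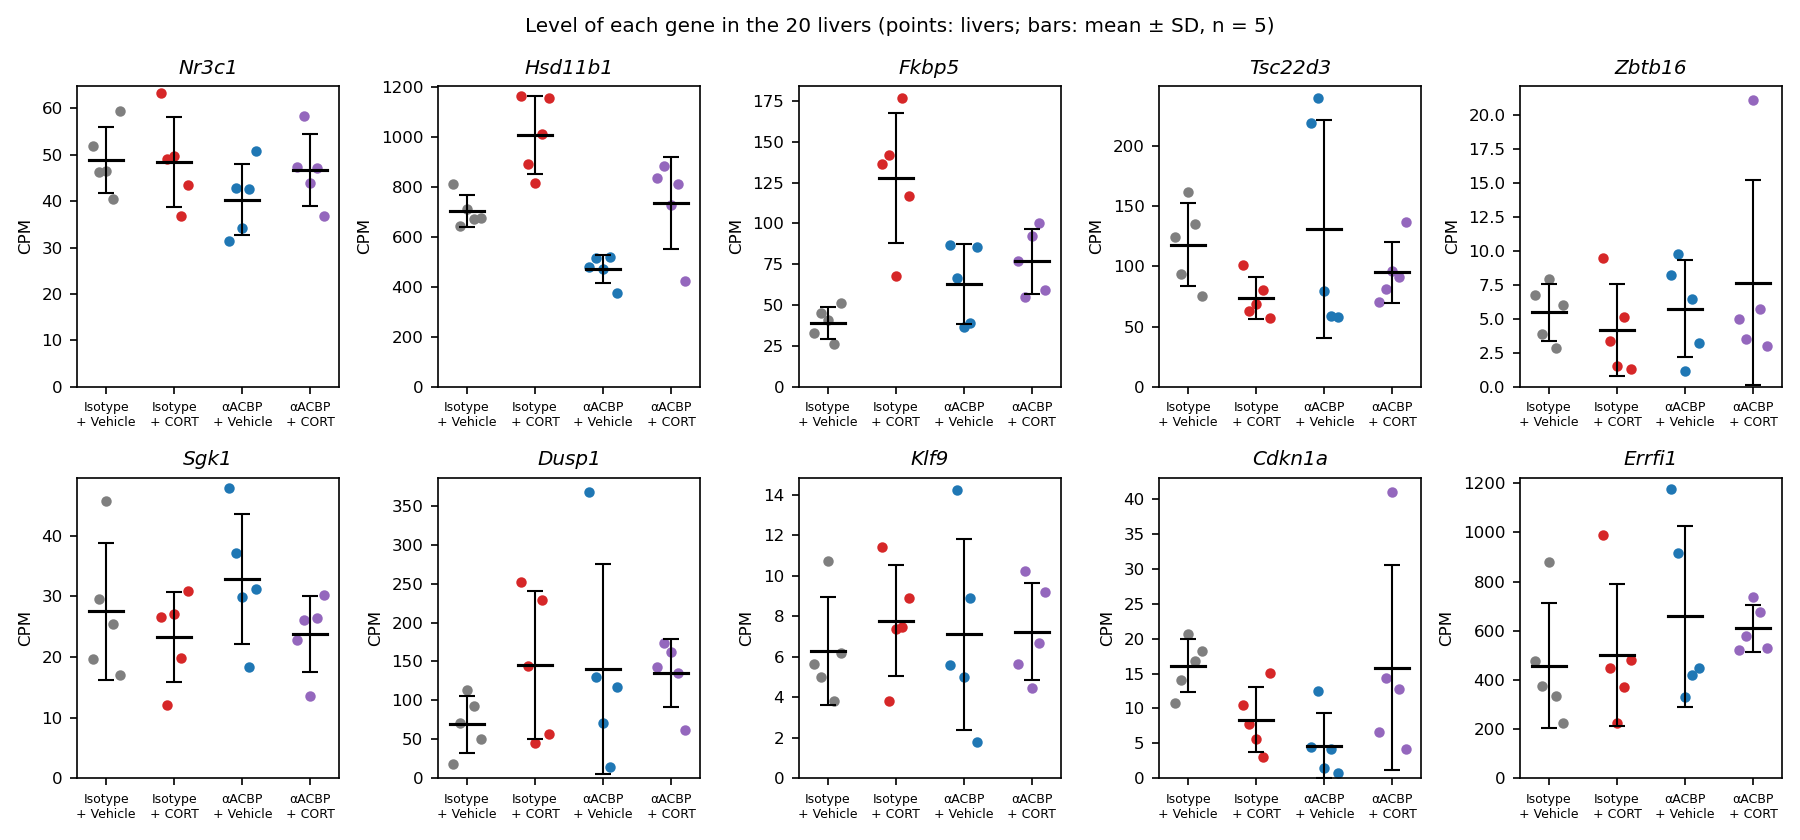
Level of each of the 10 genes in CPM (vertical axes from 0) in every liver of the 4 groups, with points for livers and bars for the mean ± SD of 5. Fkbp5 is higher in all 5 Isotype + CORT livers than in any Isotype + Vehicle liver, Hsd11b1 is lowest in αACBP + Vehicle, and Nr3c1 stays between 31.5 and 63.2 CPM throughout.

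Nr3c1, the receptor (ENSMUSG00000024431.14, chromosome 18, 39543598 to 39652474, minus strand, GRCm39), was level across the groups. Under the isotype, Nr3c1 stood at 51.8, 46.3, 46.4, 40.5 and 59.4 CPM with vehicle and at 63.2, 49.1, 49.6, 36.8 and 43.5 CPM with CORT, in order of replicate number. Under αACBP, Nr3c1 was at 31.5, 42.8, 34.1, 42.6 and 50.7 CPM with vehicle and at 47.4, 58.4, 43.9, 47.0 and 36.8 CPM with CORT. All groups overlapped. The log2 fold change with CORT under isotype was -0.01 (95% confidence interval -0.36 to 0.34), which leaves out a change of 1 on the log2 scale in either direction. The adjusted p-values were 0.381 or more in all 5 comparisons. Exons of an antisense gene, Gm58395, cover 14.8% of the exon bases of Nr3c1, and the strand setting of the counting is not given in the sources used here, so that reads of the 2 genes cannot be told apart there.

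Hsd11b1, the enzyme that regenerates corticosterone in the liver (ENSMUSG00000016194.14, chromosome 1, 192903918 to 192946489, minus strand, GRCm39), was higher in CORT livers and lower in αACBP livers on average, without passing the adjusted test. Under the isotype, Hsd11b1 stood at 810.5, 645, 711, 672 and 673 CPM with vehicle and at 1163, 889, 813, 1010.3 and 1155 CPM with CORT. Every CORT liver was above every vehicle liver there. CORT gave a log2 fold change of 0.52 (SE 0.18, adjusted p = 0.112), and the exact permutation test of 5 against 5 livers gave p = 0.00794, the smallest it can give.

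Under αACBP, Hsd11b1 was at 477, 514, 471, 517 and 376 CPM with vehicle and at 834, 883, 727, 809 and 422 CPM with CORT. Of the 5 CORT livers, 4 lay above all vehicle livers, and replicate 5, at 422 CPM, lay among them. That liver also had the lowest clock index of its group (-1.48). The log2 fold change with CORT under αACBP was 0.64 (SE 0.18, adjusted p = 0.111), and without replicate 5 it was 0.79 with an adjusted p of 0.00866, still under the fold limit of 1. With all livers, the exact permutation test gave p = 0.0397 before adjustment.

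Between the antibodies, Hsd11b1 was lower with αACBP under vehicle, where no αACBP liver reached an isotype liver (log2 fold change -0.58, SE 0.18, adjusted p = 0.0555). The exact permutation test gave p = 0.00794 there before adjustment, the smallest it can give. Under CORT the log2 fold change was -0.45 (adjusted p = 0.262, p = 0.0317 in the exact permutation test before adjustment) and the groups overlapped at 813 to 883 CPM. The response to CORT under αACBP minus that under isotype was 0.12 on the log2 scale (interval -0.39 to 0.64). With the clock index as a covariate, the value under vehicle was -0.12 and that for CORT under αACBP 0.14, while that for CORT under isotype was 0.65 (adjusted p = 0.0369). Over the alternatives that left out no single liver, the adjusted p of Hsd11b1 ranged from 0.0331 to 0.177 with CORT under isotype, from 0.0106 to 0.948 with αACBP under vehicle and from 0.0139 to 0.999 with CORT under αACBP, and the fold limit was not reached in any of them.

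Fkbp5, the co-chaperone that restrains the receptor (ENSMUSG00000024222.16, chromosome 17, 28618058 to 28737521, minus strand, GRCm39), rose with CORT under isotype. Under the isotype, Fkbp5 stood at 33.2, 45.2, 40.8, 26.1 and 51.1 CPM with vehicle and at 136, 142, 67.5, 177 and 117 CPM with CORT. The lowest CORT liver, replicate 3, was still above the highest vehicle liver. The log2 fold change was 1.70 (SE 0.26, interval 1.16 to 2.25, adjusted p = 0.000722), and by p it ranked 18 among the 16071 genes tested. In the exact permutation test p was 0.00794 before adjustment, the smallest it can give.

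Under αACBP, Fkbp5 was at 86.6, 66.4, 36.8, 39.2 and 85.8 CPM with vehicle and at 77.1, 55.0, 92.1, 100.2 and 59.2 CPM with CORT. The groups overlapped over most of their range, with a log2 fold change of 0.28 (interval -0.25 to 0.82, adjusted p = 0.720). Of the αACBP + Vehicle livers, replicates 1, 2 and 5 were above every Isotype + Vehicle liver, while replicates 3 and 4 were among them (log2 fold change 0.68, adjusted p = 0.122). Under CORT, αACBP livers had a lower mean than isotype livers, 76.7 ± 19.8 against 128 ± 40.0 CPM (SD, n = 5), with a log2 fold change of -0.74 (SE 0.26, adjusted p = 0.187). The exact permutation test gave p = 0.0476 there before adjustment.

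The difference between the CORT responses of Fkbp5 under the 2 antibodies, the interaction, was -1.42 on the log2 scale (SE 0.37, interval -2.17 to -0.66). It had an unadjusted p of 0.000672 and an adjusted p of 0.0935 in edgeR and so did not pass. DESeq2's Wald test gave -1.45 with an adjusted p of 0.0159, and the value passed in edgeR without Isotype + CORT replicate 3 (-1.58, adjusted p = 0.0351) or without αACBP + Vehicle replicate 3 (-1.56, adjusted p = 0.0494). With the clock index as a covariate it was -1.84 with an adjusted p of 0.424, and over the 10 alternatives that left out no single liver the value ranged from -1.84 to -0.99 and the adjusted p from 0.0159 to 0.424.

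Tsc22d3 encodes GILZ, a leucine zipper protein that carries part of the anti-inflammatory action of glucocorticoids (ENSMUSG00000031431.13, chromosome X, 139440091 to 139501408, minus strand, GRCm39). Under the isotype, Tsc22d3 stood at 124, 93.7, 162, 135 and 75.2 CPM with vehicle and at 101, 63.4, 69.0, 80.1 and 56.8 CPM with CORT. The mean was lower with CORT, against the direction this gene is known for, but replicates 2 and 5 of the vehicle livers lay within the CORT range. CORT gave a log2 fold change of -0.67 (SE 0.36, adjusted p = 0.384), with p = 0.0397 in the exact permutation test before adjustment.

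Under αACBP, Tsc22d3 was at 219, 239.9, 79.3, 58.5 and 58.2 CPM with vehicle and at 70.7, 81.2, 96.5, 91.1 and 137 CPM with CORT. The vehicle livers split into replicates 1 and 2, higher than any other liver of the study, and the other 3, below the median of the CORT livers. No comparison of Tsc22d3 passed. Lymphocytes and macrophages also express Tsc22d3, and the Kupffer and B cell marker sums given above were lower in Isotype + CORT as well. The median B cell sum was also lower with CORT under αACBP, at 11.8 CPM against 40.8 CPM with vehicle. The part of these cells in the value was not tested, and in whole tissue fewer cells of a type and less RNA per cell cannot be told apart.

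Sgk1, a kinase that promotes sodium transport and cell survival and holds the palindrome shown above (ENSMUSG00000019970.15, chromosome 10, 21758083 to 21875802, plus strand, GRCm39), did not pass either. Under the isotype, Sgk1 stood at 19.7, 29.7, 45.7, 25.4 and 17.01 CPM with vehicle and at 26.7, 12.1, 27.1, 19.8 and 30.9 CPM with CORT. Under αACBP, Sgk1 was at 47.8, 37.2, 29.9, 18.4 and 31.2 CPM with vehicle and at 22.8, 26.1, 13.6, 26.4 and 30.2 CPM with CORT. Each pair of groups overlapped. CORT gave log2 fold changes of -0.24 (interval -0.81 to 0.33) under isotype and -0.47 (interval -1.04 to 0.10) under αACBP, so that a rise of 1 on the log2 scale lay outside both intervals. Exons of the antisense genes ENSMUSG00000123559 and Gm66039 cover 14.4% of the exon bases of Sgk1.

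Klf9 and Zbtb16 are transcription factors that other tissues induce strongly with glucocorticoids, and they were the least abundant members per kb with Isotype + Vehicle. Klf9 (ENSMUSG00000033863.1, chromosome 19, 23118187 to 23148497, plus strand, GRCm39) had group means of 6.28 ± 2.65 CPM with Isotype + Vehicle, 7.79 ± 2.76 with Isotype + CORT, 7.10 ± 4.72 with αACBP + Vehicle and 7.24 ± 2.41 with αACBP + CORT (SD, n = 5). Its log2 fold changes lay between -0.10 and 0.31 in the 4 comparisons of 2 groups, with adjusted p-values of 0.822 or more. Zbtb16, or PLZF (ENSMUSG00000066687.4, chromosome 9, 48563141 to 48748664, minus strand, GRCm39), had means of 5.47 ± 2.07, 4.17 ± 3.37, 5.75 ± 3.53 and 7.66 ± 7.57 CPM in the same order. The last mean rested on replicate 3, at 21.1 CPM, while the other 4 livers of that group were between 3.02 and 5.73 CPM. Without that liver the log2 fold change of Zbtb16 with αACBP under CORT went from 0.88 to 0.06.

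Dusp1 and Errfi1 encode inhibitors of growth factor and stress signalling: DUSP1 removes phosphate from MAP kinases, and ERRFI1 blocks the kinase domain of the EGF receptor. Both are induced by glucocorticoids and by mitogens and stress. Dusp1 (ENSMUSG00000024190.6, chromosome 17, 26724564 to 26781102, minus strand, GRCm39) had the widest confidence intervals of the members in all 5 comparisons. Under the isotype, Dusp1 stood at 18.3, 70.5, 114, 92.5 and 50.97 CPM with vehicle and at 252, 144, 45.4, 229 and 56.5 CPM with CORT. Of the CORT livers, 3 were above all vehicle livers and the other 2 were below the vehicle median of 70.5. With CORT, the log2 fold change of 1.07 had an interval from -0.37 to 2.51 (adjusted p = 0.515).

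Under αACBP, Dusp1 was at 368, 130.1, 71.5, 14.7 and 118 CPM with vehicle and at 143, 173, 162, 136 and 61.5 CPM with CORT. The highest and the lowest liver of the study were both αACBP + Vehicle livers, replicates 1 and 4. The log2 fold change with αACBP under vehicle was 1.02 (adjusted p = 0.445) and went to 0.27 without replicate 1.

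Errfi1 (ENSMUSG00000028967.10, chromosome 4, 150938376 to 150955402, plus strand, GRCm39) did not pass in any comparison. Under the isotype, Errfi1 stood at 477, 374, 881, 334 and 225 CPM with vehicle and at 989, 447, 227, 372 and 481 CPM with CORT. Under αACBP, Errfi1 was at 1175, 916, 333, 419.6 and 449 CPM with vehicle and at 522, 579, 739, 676 and 531 CPM with CORT. In 3 groups 1 or 2 livers stood far above the rest, at 881, at 989 and at 1175 and 916 CPM, while the αACBP + CORT livers lay closer together, at 609 ± 94.8 CPM. With CORT, the log2 fold change was 0.13 under isotype (interval -0.70 to 0.97) and -0.11 under αACBP (interval -0.95 to 0.73). Exons of an antisense gene, Gm69161, cover 8.18% of the exon bases of Errfi1.

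Cdkn1a encodes p21, a cyclin-dependent kinase inhibitor that p53 and, in several cell types, the glucocorticoid receptor induce (ENSMUSG00000023067.13, chromosome 17, 29309936 to 29319701, plus strand, GRCm39). Under the isotype, Cdkn1a stood at 10.8, 14.1, 20.7, 16.8 and 18.2 CPM with vehicle and at 10.5, 7.80, 5.66, 3.00 and 15.1 CPM with CORT. Under αACBP, Cdkn1a was at 4.46, 12.6, 1.51, 4.13 and 0.77 CPM with vehicle and at 6.65, 14.4, 41.0, 12.8 and 4.27 CPM with CORT. Isotype + Vehicle had the narrowest spread and αACBP + Vehicle the lowest levels, with 4 of 5 livers below every Isotype + Vehicle liver and replicate 2 among them.

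CORT gave Cdkn1a a log2 fold change of -0.94 under isotype (adjusted p = 0.554), with p = 0.0317 in the exact permutation test before adjustment. The log2 fold change of Cdkn1a with αACBP under vehicle was -1.78 (SE 0.65, adjusted p = 0.120) and with CORT under αACBP 1.75 (adjusted p = 0.255). The exact permutation test gave p = 0.0159 and p = 0.0556 there, in the same order and before adjustment. The interaction was 2.69 (SE 0.91, adjusted p = 0.249). DESeq2's Wald test put the value with αACBP under vehicle at an adjusted p of 0.0180 and the interaction at 0.0356, and edgeR without αACBP + Vehicle replicate 2 gave -2.57 under vehicle (adjusted p = 0.0316). Over the alternatives that left out no single liver, the adjusted p ranged from 0.0180 to 0.779 under vehicle and from 0.0356 to 0.853 for the interaction. Without αACBP + CORT replicate 3, at 41.0 CPM, the value with CORT under αACBP was 1.02. Exons of 2 antisense genes, Dino and Gm64878, cover 12.5% of the exon bases of Cdkn1a.

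As a list, the 10 genes did not move in common. To be called, a gene needed a log2 fold change of at least 1 in size and, after Benjamini-Hochberg adjustment over all genes tested, p of 0.05 or less. Fkbp5 was the only member called, 1 of 10 with CORT under isotype, where 1.94% of all genes tested were called. With αACBP under CORT, CORT under αACBP and αACBP under vehicle, 0 of 10 were called by edgeR, and the shares of all genes called were 0.597%, 0.212% and 1.30%. The interaction also gave 0 of 10, beside 0.143% of all genes. At an unadjusted p of 0.05 or less without a fold limit, 2, 2, 2, 3 and 2 members passed in these 5 comparisons, beside 15.6%, 12.5%, 12.7%, 20.6% and 10.6% of all genes tested. DESeq2's Wald test called 1, 0, 0, 1 and 2, and voom 1, 0, 0, 0 and 0.

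The median log2 fold change of the members was 0.06 with CORT under isotype, with 5 higher and 5 lower, beside a median of 0.00 over all genes. With CORT under αACBP it was 0.12, with 6 higher and 4 lower. With αACBP it was -0.01 under CORT (5 higher, 5 lower) and 0.16 under vehicle (7 higher, 3 lower), beside 0.01 and -0.02 over all genes. Groups that did not overlap were seen for 2 members with CORT under isotype, Fkbp5 and Hsd11b1, and for 1 with αACBP under vehicle, Hsd11b1, where 5.04% and 7.13% of all genes did not overlap. With αACBP under CORT and CORT under αACBP no member had groups apart, beside 3.22% and 2.74% of all genes. The comparisons of CORT under isotype and αACBP under vehicle share the Isotype + Vehicle livers.

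**Figure D3:**
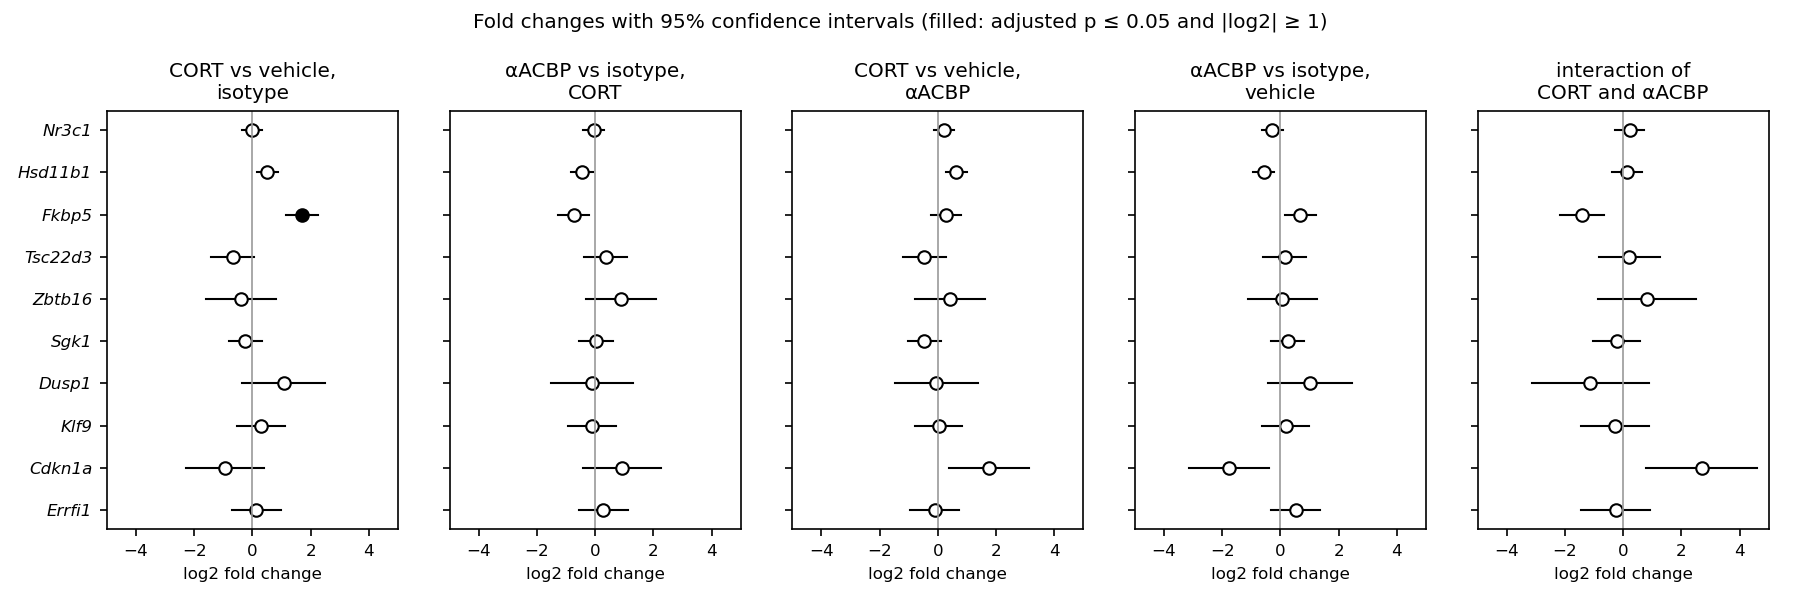
Log2 fold change of each gene (horizontal axes) with its 95% confidence interval in the 4 comparisons of 2 groups and in the interaction. Only the point of Fkbp5 with CORT under isotype (1.70) is filled as called, and the intervals of Dusp1, Zbtb16 and Cdkn1a are the widest.

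Livers of the same group differed in several members at once. Of the 10 members, 7 were highest in Isotype + Vehicle replicate 3 within its group, namely Tsc22d3, Zbtb16, Sgk1, Dusp1, Klf9, Cdkn1a and Errfi1. In Isotype + CORT, 7 were highest in replicate 1, namely Nr3c1, Hsd11b1, Tsc22d3, Zbtb16, Dusp1, Klf9 and Errfi1. In αACBP + Vehicle, replicates 1 and 2 held the highest level of 8 members, 4 each, and replicates 3 and 4 of none and 1. Fkbp5 was not highest in the Isotype + Vehicle and Isotype + CORT livers where these other targets peaked, but it was highest, with Sgk1, Dusp1 and Errfi1, in αACBP + Vehicle replicate 1.

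**Figure D4:**
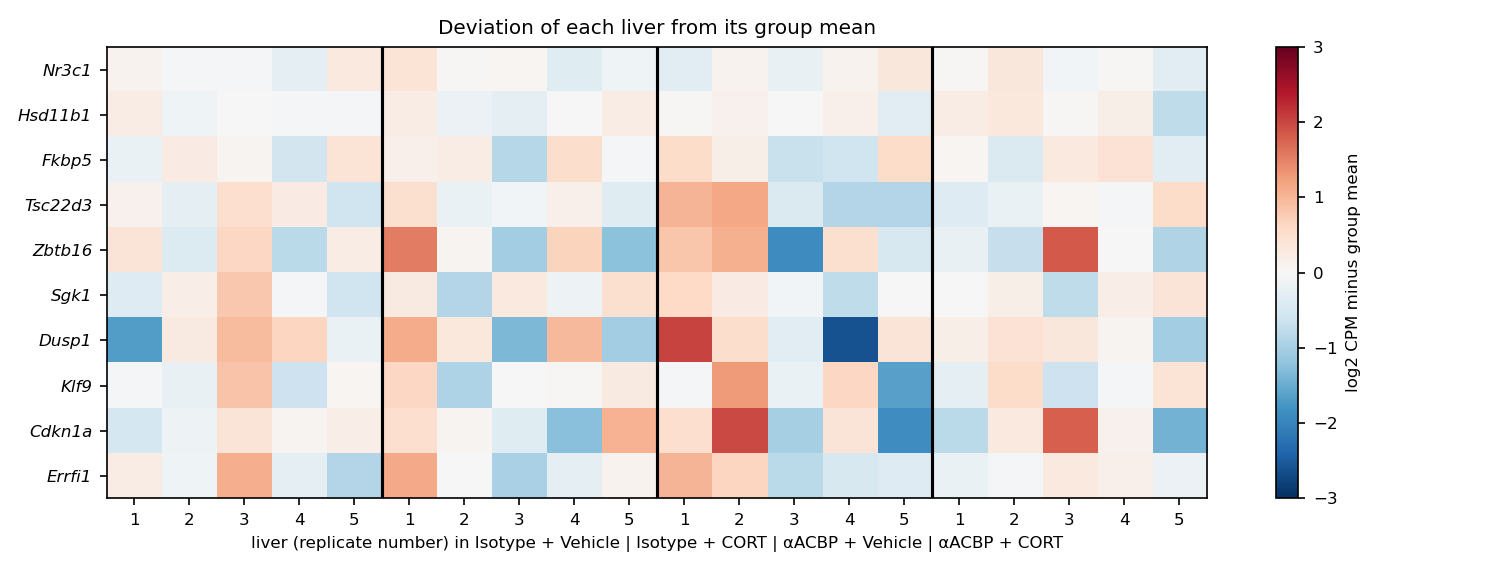
Deviation of each liver from its group mean (colour, in log2 CPM) for the 10 genes (rows) in the 20 livers (columns, by group and replicate number). Red columns such as Isotype + Vehicle 3, Isotype + CORT 1 and αACBP + Vehicle 1 and 2 run across several targets, while the rows of Nr3c1 and Hsd11b1 stay pale.

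After group means were taken away, the correlation of log2 CPM over the 20 livers was highest for Tsc22d3 with Errfi1 (r = 0.70), Zbtb16 with Errfi1 (0.64) and Fkbp5 with Dusp1 (0.61). It exceeded 0.5 for 7 of the 45 pairs of members and was lowest for Nr3c1 with Tsc22d3 (-0.35). These coefficients describe the livers, in each of which all genes share the same dissection, library and depth, and no p is given.

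The clock index moved with some members. Over the 20 livers it had r = 0.65 with Hsd11b1, 0.64 with Nr3c1, 0.59 with Cdkn1a and -0.49 with Sgk1. After group means were taken away, the values were 0.61 for Hsd11b1, 0.59 for Nr3c1, 0.15 for Cdkn1a and -0.43 for Sgk1. Zbtb16 had r = 0.38 over all livers and 0.55 within groups, and the other 5 members lay between -0.19 and 0.22 within groups. For Fkbp5 the coefficient was 0.05 over all livers. The hours at which livers were taken are not given in the sources used here, and the part of the clock in these levels was not tested. The index came from the same livers and did not overlap between the vehicle groups. A fit with the index as a covariate therefore cannot tell clock and αACBP apart under vehicle.

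By correlation over the 20 livers, the genes nearest to each member outside the list were named. Hsd11b1 had the closest ones, with r = 0.97 for Cpox, an enzyme of haem synthesis, 0.95 for Scp2, a sterol carrier protein, and 0.94 for Ugt2b34, a glucuronosyltransferase. Among the genes nearest to Fkbp5 were Cul4a (0.84) and Extl1 (0.82). After group means were taken away, r was 0.67 for Cul4a and 0.41 for Extl1 with Fkbp5. For Cpox, Scp2 and Ugt2b34 with Hsd11b1 it was 0.90, 0.81 and 0.81. Nearest to Dusp1 over the 20 livers were Bhlhe40 (0.81), Tob1 (0.80) and Nr4a1 (0.78), of which Nr4a1 is an immediate early gene. Errfi1 was nearest to Qrsl1 (0.83), Ankrd50 (0.81) and Tob2 (0.80), and Sgk1 to Cebpb (0.77), Tnfrsf1b (0.73) and Myadml2os (0.71). Nr3c1 was nearest to Fpgt (0.79), Stom (0.79) and Magoh (0.76). The nearest gene of Klf9 was Upf3a (0.83), that of Cdkn1a Ddx18 (0.78), that of Tsc22d3 Crcp (0.74) and that of Zbtb16 Anxa9 (0.74).

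The supply of ligand and its removal were followed in 12 tested genes beside Hsd11b1. Akr1c14, a hydroxysteroid dehydrogenase that inactivates steroids, had 160.3 ± 36.1 CPM with Isotype + Vehicle, 319 ± 143 with Isotype + CORT, 117 ± 17.4 with αACBP + Vehicle and 146 ± 25.1 with αACBP + CORT (SD, n = 5). It fell by 1.13 on the log2 scale with αACBP under CORT (adjusted p = 0.00948), where edgeR called 0.597% of all genes tested. That was the only call of edgeR in the list. DESeq2 called Akr1c14 there too, Serpina6 with CORT under αACBP and Nr3c2 in the interaction, and voom called none. With CORT under isotype, αACBP under CORT, CORT under αACBP and αACBP under vehicle, 4, 4, 5 and 4 passed an unadjusted p of 0.05. In the interaction 4 passed. The shares of all genes tested were 15.6%, 12.5%, 12.7%, 20.6% and 10.6%, in that order. With CORT under isotype Akr1c14 passed the adjusted p (0.0119) at a log2 fold change of 0.99, just below the fold limit. Serpina6, which encodes the corticosteroid-binding globulin of plasma, had a mean of 425 CPM with Isotype + Vehicle and 243 CPM with Isotype + CORT (log2 fold change -0.81, adjusted p = 0.0580), and 503 and 255 CPM under αACBP (-0.98, adjusted p = 0.0635). Hsd11b2, the enzyme that inactivates corticosterone in the kidney, had 0 counts in all 20 livers, which allows a level of up to the floor of 0.145 to 0.205 CPM.

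The receptor's chaperones and coregulators, 23 genes, had no call in any comparison by edgeR, DESeq2 or voom. With CORT under isotype, αACBP under CORT, CORT under αACBP and αACBP under vehicle, 9, 9, 7 and 12 passed an unadjusted p of 0.05. In the interaction 2 passed. The shares of all genes tested were 15.6%, 12.5%, 12.7%, 20.6% and 10.6%, in that order. With CORT under isotype 20 were higher and 3 lower (median log2 fold change 0.26), and with αACBP under CORT 6 were higher and 17 lower (median -0.26). These 2 comparisons share the Isotype + CORT livers. Hsp90aa1, the inducible HSP90, had 108 ± 21.3 CPM with Isotype + Vehicle, 194 ± 59.0 with Isotype + CORT, 64.1 ± 18.9 with αACBP + Vehicle and 99.0 ± 36.7 with αACBP + CORT. Its log2 fold changes were 0.85 with CORT under isotype (adjusted p = 0.0595) and -0.97 with αACBP under CORT (adjusted p = 0.0547). Dnaja1, an HSP40 co-chaperone, passed the adjusted p with αACBP under CORT (-0.86, 0.0291) but not the fold limit. Exons of the antisense genes Gm6297 and Smu1 cover 83.4% of the exon bases of Dnaja1, and the strand setting of the counting is not given.

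Of 35 other genes known to be induced through the receptor, 0 were called by edgeR with CORT under isotype, where 17 were higher and 18 lower (median log2 fold change -0.06). At an unadjusted p of 0.05, 5 passed, beside 15.6% of all genes tested, and DESeq2 called 3 (Bcl6, Rgs2 and Usp2) and voom 1 (Bcl6). The smallest p-values were those of Rgs2 (-1.18, adjusted p = 0.0830) and Klf15 (-0.57, adjusted p = 0.0859), which were both lower. With CORT under αACBP, Ppp1r3c, a subunit that directs a phosphatase to glycogen, rose by 1.66 (adjusted p = 0.0470), the only call of edgeR there. In that comparison 12 of the 35 were higher and 23 lower (median log2 fold change -0.38). An unadjusted p of 0.05 was passed by 17, beside 12.7% of all genes tested. DESeq2 called 4 (Mt2, Per1, Ppp1r3c and Usp2) and voom 4 (Mt1, Mt2, Per1 and Ppp1r3c). Of all 16071 genes tested, edgeR called 34, DESeq2 112 and voom 155 in that comparison. Under vehicle, αACBP livers had 5 calls by edgeR, 8 by DESeq2 and 6 by voom. Of all 16071 genes tested, these tools called 209, 285 and 310 there. An unadjusted p of 0.05 was passed by 16 of the 35, beside 20.6% of all genes tested. Of the edgeR calls, Mt2 (2.12), Mt1 (1.38), Usp2 (2.60) and Cebpb (1.04) rose and Ddit4 fell by 1.25, with adjusted p-values between 0.00721 and 0.0324. Mt1 and Mt2 encode metallothioneins and Cebpb a liver transcription factor, and in that comparison all αACBP livers had the lower clock index. Exons of the antisense gene Gm45774 cover 82.4% of the exon bases of Mt2, and those of Peds1 cover 20.7% of Cebpb. The strand setting of the counting is not given, so that reads of these genes and their antisense genes cannot be told apart there. With αACBP under CORT edgeR called none, DESeq2 called Gadd45b and 5 genes passed an unadjusted p of 0.05, beside 12.5% of all genes tested. In the interaction edgeR and voom called none and DESeq2 called Gadd45b, Mt2, Per2 and Usp2. There 11 of the 35 passed an unadjusted p of 0.05, beside 10.6% of all genes tested.

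Of 15 tested genes known to be repressed through the receptor, 13 were lower with CORT under isotype (median -0.58), and edgeR called none. An unadjusted p of 0.05 was passed by 4 of the 15 and by 15.6% of all genes tested, and DESeq2 called Cxcl9 and Cxcl10 and voom Cxcl9. Cxcl9, an interferon-induced chemokine, had 12.0 ± 1.74 CPM with Isotype + Vehicle, 3.60 ± 3.23 with Isotype + CORT, 10.9 ± 4.53 with αACBP + Vehicle and 19.5 ± 5.23 with αACBP + CORT. It rose by 2.43 with αACBP under CORT (adjusted p = 0.0453), and its CORT value under isotype was -1.74 (adjusted p = 0.102). Macrophages are a source of such chemokines. The Kupffer and macrophage markers, all 8 lower with CORT under isotype and 5 of them called, moved the same way, and all 8 were higher with αACBP under CORT with 2 called. Their part in the chemokine values was not tested.

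Relatives of the members were covered by 21 tested paralogues, among them Fkbp4, Tsc22d4, Klf15 and Nr3c2, the mineralocorticoid receptor. EdgeR called none in any comparison, while DESeq2 and voom called Bcl6 with CORT under isotype and with αACBP under vehicle. DESeq2 also called Nr3c2 in the interaction. With CORT under isotype, αACBP under CORT, CORT under αACBP and αACBP under vehicle, 7, 2, 7 and 7 passed an unadjusted p of 0.05. In the interaction 3 passed. The shares of all genes tested were 15.6%, 12.5%, 12.7%, 20.6% and 10.6%, in that order. Zbtb7a with CORT under isotype (0.70, adjusted p = 0.0403) and Klf13 with αACBP under vehicle (0.90, adjusted p = 0.0284) passed the adjusted p below the fold limit. Nr3c2 had 6.33, 9.14, 9.82 and 4.97 CPM on average in Isotype + Vehicle, in Isotype + CORT, in αACBP + Vehicle and in αACBP + CORT, with an interaction of -1.51 (adjusted p = 0.156). Fkbp4, which encodes the FKBP52 that competes with FKBP5 for HSP90, had 198 ± 35.7 and 226 ± 33.9 CPM without and with CORT under isotype, levels that overlapped while Fkbp5 rose.

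The lists that share regulators with single members had few calls. Among 14 p53 targets, the list nearest to Cdkn1a, Bbc3 fell by 1.45 with CORT under isotype (adjusted p = 0.0420). It encodes the cell death protein PUMA and is also a glucocorticoid target in lymphocytes. EdgeR called no other p53 target in any comparison, and it called 1.94% of all genes tested with CORT under isotype. DESeq2 called Bbc3 there too, while voom called none of the 14 in any comparison. In the order of the 5 comparisons given below, 2, 2, 0, 1 and 1 of the 14 passed an unadjusted p of 0.05. Of 18 immediate early genes, which react to stimuli as Dusp1 and Errfi1 do, edgeR called none. With CORT under isotype, αACBP under CORT, CORT under αACBP and αACBP under vehicle, 4, 2, 4 and 2 passed an unadjusted p of 0.05. In the interaction 3 passed. The shares of all genes tested were 15.6%, 12.5%, 12.7%, 20.6% and 10.6%, in that order. DESeq2 called Jun and Myc with CORT under isotype and Jun in the interaction, and voom Myc with CORT under αACBP, where 15 of 18 were lower (median -0.69). Of 10 tested genes of EGF receptor signalling, 0 were called by edgeR, DESeq2 or voom, with medians between -0.11 and 0.08 in the 4 comparisons of 2 groups. An unadjusted p of 0.05 was passed by 3 with CORT under isotype, beside 15.6% of all genes tested, and by 0 elsewhere.

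Clock genes, several of which the receptor also controls, held further calls of edgeR. Hlf rose by 1.21 with CORT under isotype (adjusted p = 0.000980). With αACBP under vehicle, Dbp (4.31), Ciart (3.24) and Tef (2.11) rose, and Arntl and Nfil3 fell by 2.11 and 1.14, with adjusted p-values of 0.0287 or less. Nfil3, which represses the targets of DBP, also rose by 1.45 with CORT under αACBP (adjusted p = 0.0101) and was the only gene of these lists that edgeR called in the interaction (1.80, adjusted p = 0.0162). Of the 16 clock genes tested, DESeq2 called 8 with CORT under αACBP, 8 with αACBP under vehicle and 9 in the interaction, and voom 8, 7 and 4. Of all 16071 genes tested, DESeq2 called 112, 285 and 187 there and voom 155, 310 and 49. Nfil3 had 68.6 ± 12.8, 53.6 ± 14.7, 31.1 ± 10.01 and 85.2 ± 27.4 CPM in Isotype + Vehicle, in Isotype + CORT, in αACBP + Vehicle and in αACBP + CORT.

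**Figure D5:**
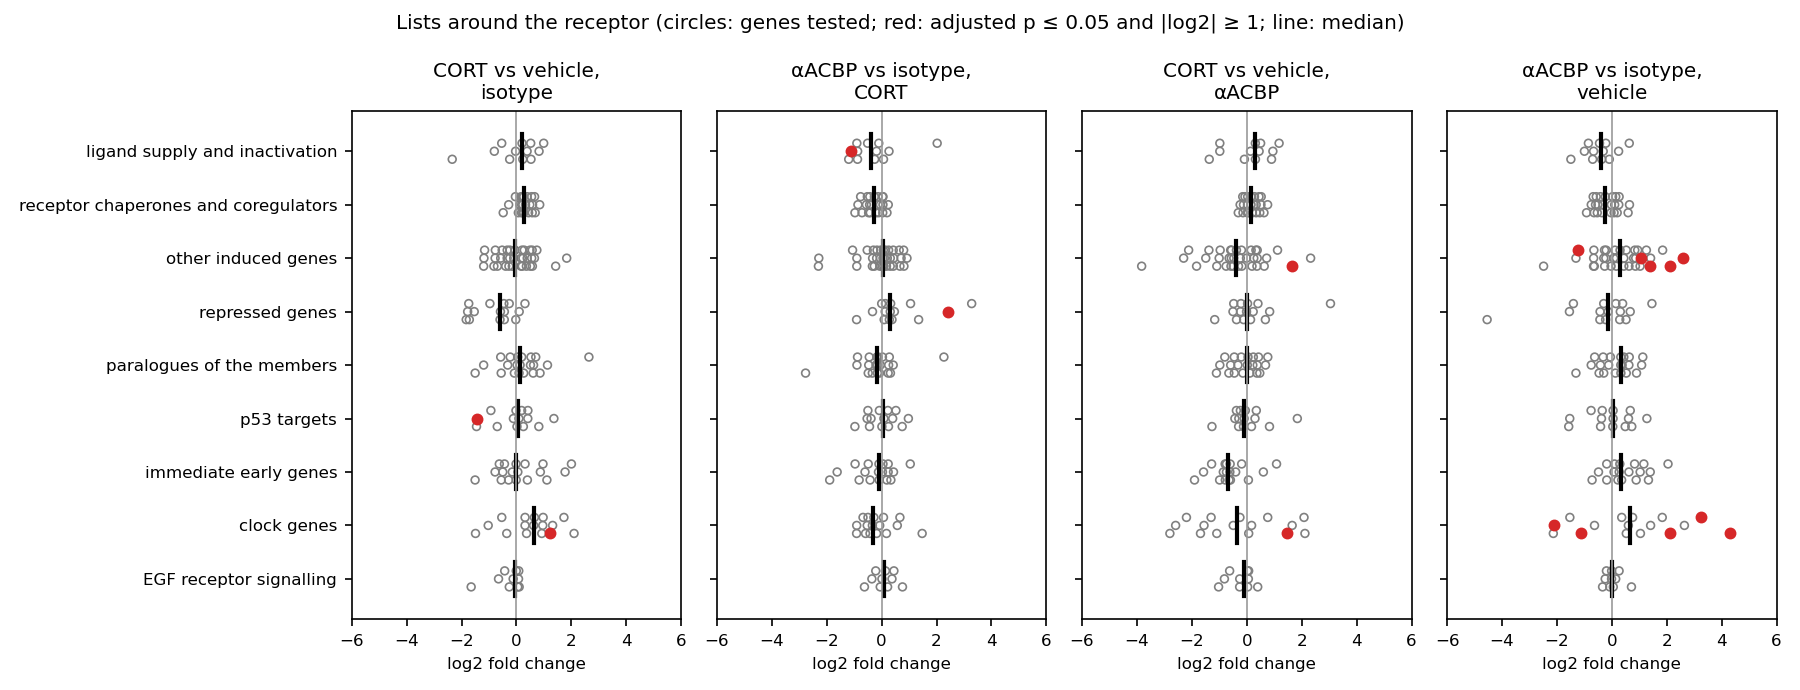
Log2 fold changes of the tested genes of 9 lists around the receptor (rows) in the 4 comparisons of 2 groups, with red points for called genes and a line at each list's median. Red points are few under CORT and isotype (Bbc3 and Hlf) and most are with αACBP under vehicle, among the clock genes and the other induced genes.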

How the data were processed

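Per the paper's methods, the authors sequenced read pairs of 150 bases from each liver, aligned them with HISAT2 to GRCm39 and counted them per gene with HTSeq in union mode, non-unique features included, so that a pair shared by overlapping genes could count for each. The submitters' processing notes name mm10 in place of GRCm39. The annotation release and strand setting are not given in the sources used here. The authors deposited raw counts, 1 column per liver, and 0 columns were left without a sample.

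Lines that name no gene were left out of library sizes: 36.6 to 40.4% of the table's pairs were counted on genes and 42.3 to 45.2% on no feature. CPM are TMM-normalized, and log2 CPM for correlations use a prior count of 2. Differences were tested in R 4.3.3 with the quasi-likelihood test of edgeR 4.0.16 (robust, edgeR's filter on low counts, 1 model of the 4 groups), with Benjamini-Hochberg adjustment over all genes tested. Each member was also compared between 5 and 5 livers with an exact permutation test (two-sided) on mean log2 CPM. Levels per kb use the union of exons in GENCODE M39, where 91.4% of the identifiers were found. The labels do not say which mice shared a cage or were processed together, and p-values measure the spread between these mice. Scripts were tried beforehand on simulated count tables with known changes.

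The members, lists and rules were chosen with earlier results of these data known. All 10 members are named, as well as the called genes of each list (at most 5 a list and comparison, or where none was called up to 2 of the smallest p) and up to 3 nearest genes by correlation per member. A gene that this rule names is not reported here. Alternatives were other normalizations and filters, DESeq2 1.42.0, voom of limma 3.58.1, only the groups compared, a replicate block, the clock index as a covariate and each liver left out.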

Additional observations from a re-analysis of the deposited data

Results flagged for a closer look

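Among the 10 genes in 4 groups of 5 livers, the gap of the highest or lowest liver to its neighbour was compared with the range of its group, and chance alone marks about 1 in 20 such groups. This marked 2 values, both in αACBP + CORT replicate 3: Zbtb16 at 21.1 CPM, where the other 4 livers had 3.02 to 5.73 CPM, and Cdkn1a at 41.0 CPM, where the others had 4.27 to 14.4 CPM. Errfi1 was also highest of its group in that liver, at 739 CPM, while Sgk1 was lowest, at 13.6 CPM. Zbtb16 and Cdkn1a had r = 0.51 over the 20 livers after group means were taken away.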

How the results depend on the processing

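The rise of Fkbp5 with CORT under isotype was called in each of the 12 other settings and with each of the 20 livers left out. DESeq2's Wald test raised the number of members called to 1 with αACBP under vehicle (Cdkn1a) and 2 in the interaction (Cdkn1a and Fkbp5), and so did unadjusted p, which also called 1 with CORT under αACBP (Cdkn1a). With a liver left out, the number called lay between 0 and 1 for αACBP under vehicle (1 without αACBP + Vehicle replicate 2) and for the interaction (1 without Isotype + CORT replicate 3 or αACBP + Vehicle replicate 3). The fit with the replicate block called 1 member, Fkbp5, with CORT under isotype and 0 elsewhere. Same-numbered livers are different mice whose deviations from the group means correlated between -0.10 and 0.10, so the number is a name only. The block moved the calls over all genes from 312, 96, 34, 209 and 23 (CORT under isotype, αACBP under CORT, CORT under αACBP, αACBP under vehicle, interaction) to 284, 90, 36, 185 and 20. The Wald test called 527, 211, 112, 285 and 187 genes, voom 242, 57, 155, 310 and 49, unadjusted p 890, 520, 395, 537 and 791, and fits of only 2 groups 231, 27, 30 and 227. Without a fold limit the counts were 514, 154, 49, 826 and 23. The interaction had 35 calls with DESeq2's size factors, 41 without the 20 most abundant genes in library sizes, 53 without a filter and 60 with at least 10 counts in every liver. With the clock index as a covariate, CORT under αACBP, αACBP under vehicle and the interaction had 0 calls of edgeR. All of these use the αACBP + Vehicle livers, whose index lay below that of every Isotype + Vehicle liver. These counts thus cannot tell clock and treatment apart. Over the livers left out, the 5 counts lay between 205 and 421, 52 and 191, 5 and 153, 87 and 343, and 6 and 101.

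Direction changed only for fold changes that were not called in either fit. With the clock index, the log2 fold change of Nr3c1 was 0.11 with CORT under isotype, -0.27 with CORT under αACBP, 0.17 with αACBP under vehicle and -0.37 in the interaction. That of Sgk1 was 0.19 with CORT under αACBP, -0.37 with αACBP under vehicle and 0.60 in the interaction, that of Zbtb16 -1.40 with CORT under αACBP and -1.25 in the interaction, that of Fkbp5 -0.067 with CORT under αACBP, that of Tsc22d3 -0.19 with αACBP under vehicle and that of Hsd11b1 -0.51 in the interaction. With voom, Errfi1 was at -0.00086 with CORT under isotype, 0.15 with CORT under αACBP and 0.15 in the interaction, Dusp1 at 0.095 with αACBP under CORT and 1.03 with CORT under αACBP, Nr3c1 at 0.049 with αACBP under CORT, Klf9 at -0.10 with CORT under αACBP, and Tsc22d3 and Zbtb16 at -0.037 and -0.25 with αACBP under vehicle. Differences of mean log2 CPM, as used in the exact permutation tests, were 0.13 for Dusp1 with αACBP under CORT, 0.50 for Dusp1 and 0.050 for Errfi1 with CORT under αACBP, and -0.088, -0.16 and -0.030 for Tsc22d3, Zbtb16 and Klf9 with αACBP under vehicle. With the replicate block, Dusp1 was at 0.0027 with αACBP under CORT, and Dusp1 and Errfi1 were at 0.043 and 0.019 with CORT under αACBP.

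With a liver left out, the log2 fold changes that changed direction had these ranges. With CORT under isotype they were -0.13 to 0.069 for Nr3c1, -0.26 to 0.51 for Errfi1 and -0.38 to 0.013 for Sgk1. With αACBP under CORT they were -0.13 to 0.18 for Sgk1, -0.27 to 0.075 for Klf9, -0.33 to 0.19 for Dusp1 and -0.15 to 0.062 for Nr3c1. With CORT under αACBP they were -0.22 to 0.44 for Klf9, -0.41 to 0.69 for Zbtb16, -0.34 to 0.70 for Dusp1 and -0.28 to 0.20 for Errfi1. With αACBP under vehicle they were -0.19 to 0.33 for Tsc22d3, -0.21 to 0.33 for Zbtb16 and -0.25 to 0.46 for Klf9. In the interaction they were -0.013 to 1.37 for Zbtb16, -0.62 to 0.15 for Errfi1 and -0.56 to 0.15 for Klf9. The cause of these changes was not tested. With 5 livers a group and the spread within groups given for Dusp1, Cdkn1a and Zbtb16, changes of these genes near the fold limit were not detectable here.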
